A study of Mus musculus with 69 samples.

Results

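NRF2, encoded by Nfe2l2, is the transcription factor through which cells raise their defence against oxidants and electrophiles, and 40 genes of this pathway were followed in mouse bone marrow-derived macrophages (BMDMs) treated with interleukin-4 (IL-4). The genes were chosen by symbol as members of the pathway, by a rule that sets no threshold on how they changed. Earlier results of these data were known when the genes were chosen. They are 40 of the 24537 genes listed in each deposited RNA-seq table. They comprise 8 regulators, 5 genes of glutathione supply, 5 of the thioredoxin and peroxiredoxin system, 5 that remove peroxide or superoxide, 6 for quinone reduction, conjugation and export, 6 that supply NADPH, and 5 that handle haem and iron.

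In resting cells KEAP1 binds NRF2 and delivers it to a ubiquitin ligase for degradation. Oxidants modify cysteines of KEAP1, NRF2 then accumulates, pairs with a small MAF protein (Mafg, Maff or Mafk) and binds antioxidant response elements beside its target genes, while BACH1 occupies the same elements as a repressor until haem displaces it. Macrophages rely on these genes because they produce oxidants, engulf dying red cells and must dispose of haem and iron.

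The tests cover 3 experiments, all on BMDMs grown from bone marrow of adult female mice. In the 5-strain experiment, cells of SPRET/EiJ (SPRET), PWK/PhJ (PWK), NOD/ShiLtJ (NOD), BALB/cJ (BALB) and C57BL/6J (C57) were left untreated (basal) or given 20 ng/ml IL-4 for 24 hours, with 3 libraries per group and 2 for basal PWK. In the time course, C57 and SPRET cells were sampled at basal and after 1, 6 and 24 hours of IL-4, with 2 libraries each. In the Egr2 experiment, cells of LyzM-Cre Egr2 fl/fl mice (Egr2MKO) and of Egr2 fl/fl mice without Cre (Egr2WT) were sampled at the same times, again with 2 libraries each. Both of these genotypes carry the floxed Egr2 alleles, and LyzM-Cre removes the gene for the transcription factor EGR2 in cells of the myeloid lineage. Untreated and 24-hour IL-4 cells of F1 mice, C57xSPRET and C57xNOD, with 2 libraries per condition, gave the level of each parental allele.

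Values are TPM, transcript abundances corrected for depth and transcript length. Differences are on the log2(TPM + 1) scale from limma fits across all tested genes, with the standard error (SE) and a Benjamini-Hochberg p-value adjusted over all of them. A gene that "passed" had an adjusted p under 0.05, and a gene is said to be called, or past 2-fold, if it also changed more than 2-fold. All 40 genes were above the filter of 1 TPM in at least 2 libraries in each of the 3 tables, in which 11907, 12088 and 12079 genes were tested.

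The 61 tested libraries held 4.69 M to 32.9 M tags. Libraries of a group correlated at 0.99 or more in the 5-strain table, 0.988 or more in the time course table and 0.971 or more in the Egr2 table. Macrophage markers summed to 9330 to 53700 TPM, whereas erythroid markers reached at most 0.743 TPM, listed T cell markers 0.573, B cell markers 6.6, fibroblast markers 2.36 and dendritic cell markers 7.83. Egr2 itself rose from 23.6 and 21.3 TPM at basal to 101 and 99.5 TPM after 24 hours of IL-4 in Egr2WT and did not exceed 7.05 TPM in Egr2MKO. In bulk RNA, fewer cells that express a gene and less RNA per cell cannot be told apart.

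Promoters were read from the C57 reference (RefSeq, GRCm38.p6) as 250 bases before to 50 after a gene's start, and 33 of the 40 genes had one. The letters TGACNNNGC, the core of the antioxidant response element, stood on either strand in 12 of these 33 (36.4%), namely Nfe2l2, Mafg, Maff, Mafk, Gclm, Txnrd1, Srxn1, Prdx1, Sod1, G6pdx, Pgd and Me1, and in 14.0% of the 27025 genes with a promoter. TTC and GAA with any 4 bases between them, letters that STAT proteins can bind, stood in 3 (9.09%), Gstm1, Pgd and Blvrb, against 8.01% of all. A match describes the letters and not a bound site. The promoters of 4 genes are shown in full because Gclm differed in its IL-4 response between C57 and each of the other strains, and Txnrd1, Srxn1 and Prdx1 were past 2-fold lower in Egr2MKO after 24 hours of IL-4. Capitals mark the element, which in each of them lies on the opposite strand and so reads GCNNNGTCA, and all 4 are on the + strand. The Gclm window is chr3:122245307-122245606, with the element 134 bases before the start. That of Txnrd1, the window with the match among its 3, is chr10:82858956-82859255, with the element 92 bases before the start. The Srxn1 window is chr2:152105274-152105573, with the element 28 bases after the start. The Prdx1 window is chr4:116685349-116685648, with the element 133 bases before the start.
Gclm: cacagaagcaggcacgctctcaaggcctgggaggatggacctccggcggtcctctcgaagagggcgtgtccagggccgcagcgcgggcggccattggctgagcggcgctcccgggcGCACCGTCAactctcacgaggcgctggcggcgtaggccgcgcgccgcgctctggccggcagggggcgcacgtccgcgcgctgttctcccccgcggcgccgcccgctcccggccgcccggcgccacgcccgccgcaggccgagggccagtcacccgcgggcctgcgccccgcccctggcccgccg
Txnrd1: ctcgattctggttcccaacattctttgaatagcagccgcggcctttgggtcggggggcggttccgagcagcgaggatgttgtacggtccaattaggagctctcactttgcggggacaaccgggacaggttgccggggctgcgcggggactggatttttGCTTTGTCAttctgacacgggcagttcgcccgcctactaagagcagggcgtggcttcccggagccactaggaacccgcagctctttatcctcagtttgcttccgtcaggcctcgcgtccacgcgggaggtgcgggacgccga
Srxn1: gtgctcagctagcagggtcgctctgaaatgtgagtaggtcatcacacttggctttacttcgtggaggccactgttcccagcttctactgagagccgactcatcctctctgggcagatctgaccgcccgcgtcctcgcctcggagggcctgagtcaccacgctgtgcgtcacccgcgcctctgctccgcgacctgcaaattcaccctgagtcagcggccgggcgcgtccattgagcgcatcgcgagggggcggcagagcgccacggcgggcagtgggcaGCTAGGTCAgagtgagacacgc
Prdx1: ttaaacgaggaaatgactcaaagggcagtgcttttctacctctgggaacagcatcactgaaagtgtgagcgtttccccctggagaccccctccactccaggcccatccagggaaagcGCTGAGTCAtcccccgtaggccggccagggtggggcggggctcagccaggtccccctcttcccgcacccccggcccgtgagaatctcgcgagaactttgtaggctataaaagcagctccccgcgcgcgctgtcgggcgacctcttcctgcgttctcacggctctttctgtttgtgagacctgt

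In C57 BMDMs, 24 hours of IL-4 lowered antioxidant genes of all 7 functional groups. Of the 40 genes, 12 fell more than 2-fold and none rose, while 1.53% of all tested genes were called lower and 2.28% higher. Counting every gene that passed, 31 fell and 1 rose, against 20.5% and 15% of all tested genes. The median log2 difference was -0.69 over the 40 genes and -0.04 over all tested genes. Scaling the libraries by median ratios left 30 passed lower and 1 higher.

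Glutathione supply fell as a whole, with 5 of 5 genes passed lower and 3 past 2-fold. Gsr (mm10 chr8:33653238-33698162, + strand), the reductase that regenerates glutathione, was at 74.9, 69.4 and 73.9 TPM in the basal C57 libraries and at 23.4, 22 and 22.4 after IL-4. Its log2 difference was -1.64 ± 0.051 (SE, adjusted p = 1.0e-18), and the groups lay far apart. Gclm (chr3:122245557-122267215, + strand), the modifier subunit of the enzyme that makes the glutathione precursor, went from 103, 101 and 98.1 to 36.1, 36 and 35.8 TPM, a difference of -1.46 ± 0.072 (adjusted p = 1.3e-14). Gss, glutathione synthetase, fell by 1.03 on the log2 scale. Gclc, the catalytic partner of Gclm, and Slc7a11, which imports cystine, passed with -0.70 and -0.76 but stayed within 2-fold.

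All 5 thioredoxin and peroxiredoxin genes passed lower. Prdx6 (chr1:161240112-161251210, - strand), a peroxiredoxin that also acts on lipid peroxides, fell from 331, 311 and 331 TPM to 113, 114 and 110 (log2 difference -1.52 ± 0.047, adjusted p = 7.5e-19). Prdx1 (chr4:116685599-116700000, + strand), an abundant cytosolic peroxiredoxin, fell from 4480, 4140 and 4780 TPM to 1960, 2070 and 1890 (-1.18 ± 0.058, adjusted p = 1.0e-14). Srxn1, which repairs over-oxidised peroxiredoxins, was just short of 2-fold at -0.99, and Txnrd1, thioredoxin reductase, was at -0.89. Txn1, thioredoxin, moved least of the group, with -0.34.

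Among the genes that remove peroxide or superoxide, Cat (catalase) and Sod2 (the mitochondrial superoxide dismutase) were past 2-fold lower. Cat fell from 194, 201 and 166 TPM to 85.9, 77 and 67.6, and Sod2 (chr17:13007839-13018119, + strand) from 162, 157 and 153 to 73.3, 67.7 and 62.5. The cytosolic Sod1 passed with -0.99. Gpx1, a glutathione peroxidase, was the 1 gene of the 40 that rose in C57, from 832, 850 and 840 TPM to 1090, 1050 and 1140 (0.38 ± 0.056, adjusted p = 6.7e-06). Gpx4, which reduces lipid peroxides in membranes, did not pass (0.12 ± 0.06, adjusted p = 0.13).

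Of the 6 genes for quinone reduction, conjugation and export, 3 passed lower. Nqo1 (chr8:107388225-107403205, - strand), a quinone reductase widely used as an NRF2 read-out, fell from 65.1, 56 and 59.7 TPM to 24.9, 25.3 and 23.2 (-1.26 ± 0.106, adjusted p = 4.3e-10). Abcc1, an exporter of glutathione conjugates, fell from 43, 48.7 and 40.1 TPM to 20.5, 17 and 17.2. The glutathione transferase Gstp1 also passed, at -0.91, whereas Gstm2 was at -0.03 (adjusted p = 0.85).

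All 6 NADPH genes passed lower, Pgd and Me1 past 2-fold. Pgd, of the pentose phosphate pathway, fell from 559, 511 and 540 TPM to 237, 238 and 233, with no overlap. Me1, malic enzyme, is a low gene here, at 4.1, 3.29 and 3.65 TPM before and 1.26, 0.768 and 1.05 TPM after IL-4. All 5 haem and iron genes passed lower as well. Hmox1 (chr8:75093618-75100593, + strand), which breaks haem down, fell from 2190, 2100 and 2020 TPM to 722, 710 and 676 (-1.58 ± 0.041, adjusted p = 2.8e-20). The ferritin light chain gene Ftl1 moved much less, at -0.33, and its level, like those of Fth1, Prdx1, Txn1, Gpx1, Gpx4 and the Gst genes, is uncertain because processed copies or close paralogs can share reads.

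None of the 8 regulators was past 2-fold in C57. Nfe2l2 (chr2:75675513-75704663, - strand) was at 93.5, 89.8 and 87.3 TPM before and 83.2, 81 and 73.6 TPM after IL-4, a log2 difference of -0.19 ± 0.066 (adjusted p = 0.029). Keap1 (chr9:21229730-21239332, - strand) fell from 32.5, 34.1 and 32.8 to 25.5, 24.3 and 24.6 TPM (-0.40 ± 0.054, adjusted p = 1.3e-06). Bach1 (chr16:87698954-87733346, + strand) was at 6.93, 9.81 and 6.08 TPM and then 8.44, 7.12 and 6.49 TPM, overlapping between the groups (-0.03 ± 0.129, adjusted p = 0.9). Nfe2l1, the related factor NRF1, did not pass either (-0.06 ± 0.047, adjusted p = 0.32). Sqstm1, which encodes p62, a selective autophagy receptor that binds KEAP1, fell by 0.65 on the log2 scale.

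In the other strains fewer of the 40 genes fell past 2-fold. In BALB 1 gene was past 2-fold higher and none lower, where 1.27% and 0.815% of all tested genes were called. In NOD and PWK none of the 40 was called in either direction, against 0.731% higher and 0.462% lower in NOD and 1.54% and 0.546% in PWK. In SPRET 2 were called lower and none higher, against 1.62% and 2.32% of tested genes. Counting all that passed, 21 fell and 6 rose in BALB, where 24.8% and 9.45% of tested genes did. The counts were 18 and 3 in NOD (6.07% and 28.2%), 12 and 7 in PWK (6.08% and 18.6%), and 19 and 4 in SPRET (12.9% and 31.4%). With libraries scaled by median ratios these splits were 15 and 9, 28 and 1, 23 and 6, and 25 and 2. The median difference over the 40 genes was -0.20 for BALB (-0.11 over all tested genes), -0.15 for NOD (0.12), -0.11 for PWK (0.08) and -0.15 for SPRET (0.11).

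The BALB gene past 2-fold was Gsta4, a transferase that conjugates the lipid peroxidation product 4-hydroxynonenal. It was at 5.25, 3.72 and 3.56 TPM at basal and at 10.8, 8.24 and 11.9 TPM after IL-4 (1.13 ± 0.152, adjusted p = 2.4e-06), and its call was lost without replicate 3 (0.94). In SPRET, Sod2 fell from 151, 147 and 145 TPM to 63.6, 58.3 and 59 (-1.28 ± 0.055, adjusted p = 4.8e-16), and Hmox1 from 1080, 1050 and 1060 to 416, 419 and 404 (-1.36 ± 0.041, adjusted p = 3.2e-19). Set against C57, the response differed by 0.21 ± 0.058 for Hmox1 (adjusted p = 0.0055) and by -0.07 ± 0.077 for Sod2 (adjusted p = 0.5).

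Sqstm1 passed lower in each of the 5 strains, by 0.65 in C57, and with log2 differences of -0.49 in PWK, -0.58 in BALB and NOD and -0.62 in SPRET. Gpx1 passed higher in each strain, most in SPRET (0.79) and PWK (0.75), then BALB (0.58), NOD and C57 (0.38 each). Prdx6, Sod1, Sod2, Pgd, Hmox1 and the haem transporter gene Slc48a1 also passed lower in each strain. Nfe2l2 fell in NOD (-0.22 ± 0.066, adjusted p = 0.011) and did not pass in BALB (-0.12, adjusted p = 0.17), PWK (0.06, adjusted p = 0.61) or SPRET (-0.04, adjusted p = 0.7). Keap1 rose in PWK, from 23.1 and 21.9 TPM to 26.7, 29.6 and 25.4 (0.26 ± 0.06, adjusted p = 0.0021), a call lost with median-ratio scaling, where Keap1 was at 0.15. Bach1 passed in none of the 5 strains.

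**Figure D1:**
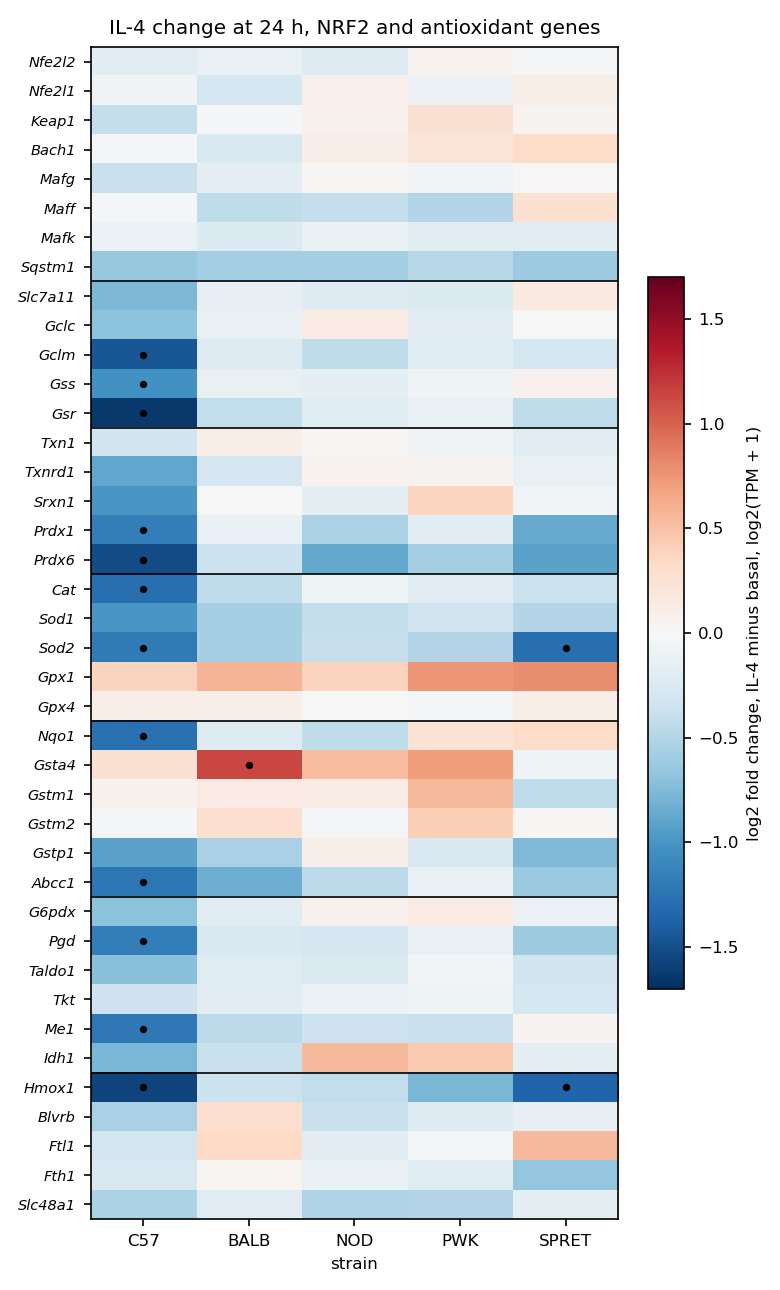
Log2 difference, 24-hour IL-4 minus basal, of the 40 genes (vertical axis, grouped by function with dividing lines) in each of the 5 strains (horizontal axis), as colour, with a black dot where the gene was past 2-fold with an adjusted p under 0.05. The 12 dots in the C57 column are all on falls, against 1 on a rise in BALB, none in NOD or PWK, and 2 on falls in SPRET.

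The difference between the strains was tested directly, as the IL-4 response of each strain minus that of C57. The 4 comparisons share the C57 libraries, so they are not independent. More than 2-fold differences, all toward a smaller fall or a rise, were called for 6 BALB, 6 NOD, 8 PWK and 5 SPRET genes, where 0.63%, 1.04%, 1.26% and 1.83% of all tested genes were called in that direction. None of the 40 was called in the other direction, where 0.857%, 1.43%, 0.999% and 1.62% of tested genes were. Scaling by median ratios, which moved the median of all response differences from 0.17 toward 0 in NOD, gave 8, 2, 5 and 3 genes. Counting all that passed, 28 were higher and 2 lower in BALB, where 5.43% and 10.4% of tested genes were, 25 and 1 in NOD (26% and 7.32%), 29 and 1 in PWK (16.8% and 5.58%), and 26 and 2 in SPRET (24.4% and 8.94%).

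Gclm and Gsr were called in each of the 4 comparisons. For Gclm the response difference was 1.23 ± 0.102 (BALB), 1.02 ± 0.102 (NOD), 1.25 ± 0.108 (PWK) and 1.16 ± 0.102 (SPRET), with adjusted p-values of 3.0e-09, 3.6e-08, 4.8e-09 and 2.5e-09. Behind them, Gclm went from 81.7, 74.6 and 78.8 to 73, 61.9 and 66.2 TPM in BALB, from 72.8, 75.6 and 71.4 to 54.7, 50.8 and 56.8 in NOD, from 14.4 and 15.3 to 13.7, 12.4 and 12.3 in PWK, and from 11.4, 13.5 and 10.4 to 9.7, 9.77 and 8.65 in SPRET. Gclm thus started close to the C57 level in BALB and NOD and far below it in PWK and SPRET. With median-ratio scaling the Gclm differences in NOD and SPRET were 0.8 and 0.99, under 2-fold with adjusted p-values of 6.5e-07 and 1.3e-08. For Gsr the differences were 1.23 ± 0.072, 1.44 ± 0.072, 1.52 ± 0.076 and 1.21 ± 0.072, in the same order. Basal Gsr in BALB (69.4, 66.6 and 68 TPM) was near that of C57, and after IL-4 it was 53.4, 47.6 and 51.3 TPM.

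Nqo1 was called in BALB (1.05 ± 0.15), PWK (1.51 ± 0.16) and SPRET (1.58 ± 0.15), where IL-4 took it from 19.8, 19.5 and 19 TPM to 23.9, 24.5 and 24.8. Hmox1 was called in BALB (1.22 ± 0.058) and NOD (1.16 ± 0.058). Its NOD levels, 2140, 2240 and 2160 TPM at basal, did not pass against those of C57 (0.05 ± 0.041, adjusted p = 0.25) and went to 1720, 1540 and 1620. Cat (1.2 in NOD and 1.09 in PWK) and Idh1, a cytosolic source of NADPH (1.34 in NOD and 1.22 in PWK), were each called in the same pair of strains. Idh1 rose in NOD, from 7.66, 8.7 and 11 TPM to 13.6, 13.5 and 14, and in PWK, from 43.9 and 43.9 TPM to 56.7, 62.6 and 60.4. The remaining calls were Prdx1 (1.07) and Prdx6 (1.16) in BALB, Gstp1 (1.00) in NOD, Srxn1 (1.36), Abcc1 (1.1) and Pgd (1.06) in PWK, and Gss (1.11) and Me1 (1.26) in SPRET. For Gstp1, leaving out replicate 1 took the value to 0.62. Median-ratio scaling took some of these differences under 2-fold, though all still passed. They were Hmox1 (0.93), Cat (0.98) and Gstp1 (0.8) in NOD, Cat (0.94), Abcc1 (0.95) and Pgd (0.9) in PWK, and Gss (0.92) in SPRET. Quantile scaling did so for Prdx1 (0.96) and Hmox1 (0.97) in BALB, Gstp1 (0.83) in NOD, Abcc1 (0.99) in PWK and Gss (0.96) in SPRET.

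No regulator was called for a response difference between strains. Keap1 responses were higher than in C57 in each strain (BALB 0.39 ± 0.076, NOD 0.47 ± 0.076, PWK 0.66 ± 0.081, SPRET 0.46 ± 0.076, with a largest adjusted p of 8.1e-04). For Nfe2l2 no difference passed, with 0.07 ± 0.093, -0.04 ± 0.093, 0.25 ± 0.098 and 0.15 ± 0.093, and the same was true of Bach1, whose SEs were larger (0.183 to 0.194).

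Neutrophil markers also differed between the strains and with IL-4. The summed level of 7 such genes fell with IL-4 from 106 to 131 TPM to 16.7 to 24.3 in C57, from 53 to 60 to 18 to 19.8 in BALB and from 40.9 to 52.7 to 15.2 to 18.9 in NOD. It was 548 to 555 TPM before and 546 to 598 after in PWK, and 344 to 404 before and 249 to 274 after in SPRET. Ly6g, which defines neutrophils, was at 0 in every library of the C57, NOD and SPRET basal groups and of the C57, BALB, PWK and SPRET groups with IL-4. Macrophage markers also fell in C57, from 23200 to 23900 TPM to 16600 to 17800, and in BALB, from 29100 to 30200 to 21500 to 23100. The part of either in the antioxidant genes was not tested.

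**Figure D2:**
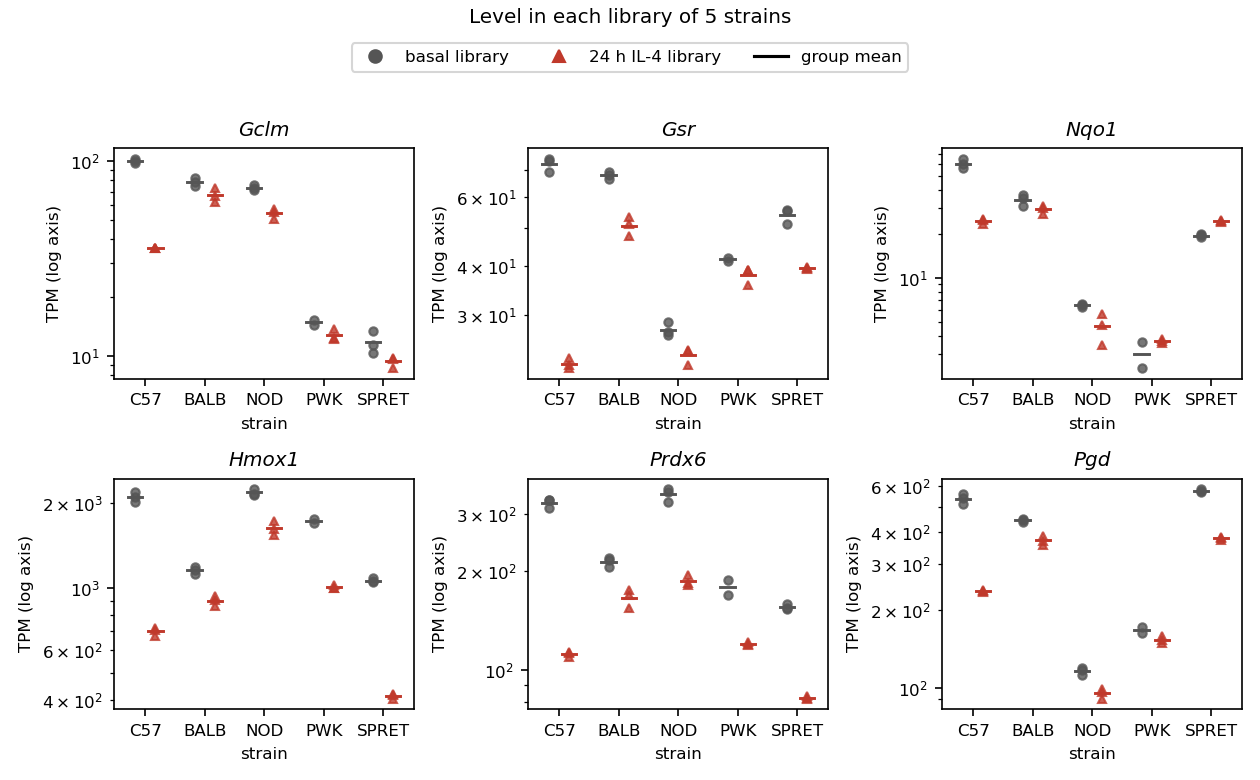
TPM (log axis) of Gclm, Gsr, Nqo1, Hmox1, Prdx6 and Pgd in every library of the 5 strains, with circles for basal, triangles for 24 hours of IL-4 and bars for group means. C57 triangles lie well below C57 circles in each panel, from 98.1 to 103 down to 35.8 to 36.1 TPM for Gclm, while the pairs of the other strains lie closer together except for Hmox1 in SPRET.

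Before any IL-4, 25 of the 40 genes were more than 2-fold away from C57 in at least 1 strain. No share of all tested genes was computed for this joint count. The counts in single strains were 0 higher and 1 lower in BALB, where 2.65% and 2.17% of all tested genes were called, 5 and 11 in NOD (5.15% and 11.7%), 1 and 13 in PWK (4.49% and 8.81%) and 2 and 12 in SPRET (8.58% and 9.52%). In NOD the median of all tested genes was at -0.30, and scaling by median ratios brought it to -0.03 and the counts to 6 higher and 6 lower.

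Of the regulators, Mafk, Maff and Sqstm1 were past 2-fold higher in NOD. Mafk was at 52.5, 50.5 and 56.2 TPM against 13.1, 11.3 and 12.8 in C57 (2.02 ± 0.072, adjusted p = 5.2e-18), and Maff at 18.3, 18 and 16.8 against 4.84, 4.9 and 5.05 (1.66 ± 0.081). Small MAF proteins pair with NRF2 and with BACH1 alike. Sqstm1 was at 2630, 2580 and 2520 TPM in NOD against 881, 847 and 862 in C57 (1.58 ± 0.042, adjusted p = 1.5e-20), and at 373, 380 and 349 in SPRET (-1.23 ± 0.042). Keap1 was lowest in NOD, at 17.6, 17.8 and 18.1 TPM. Nfe2l2 was highest in SPRET, at 120, 122 and 117 TPM (0.41 ± 0.066, adjusted p = 6.1e-06), followed by BALB with 109, 95.5 and 93.3 TPM, which did not pass against C57 (0.13 ± 0.066, adjusted p = 0.11). It was lower in PWK, at 59.4 and 58.8 TPM (-0.60 ± 0.073), and in NOD, at 66.5, 73.7 and 73.6 TPM (-0.34 ± 0.066), but under median-ratio scaling the NOD value was 0.02 (adjusted p = 0.75). Bach1 was lower in PWK (4.47 and 4.26 TPM, -0.66 ± 0.144) and SPRET (5.58, 5.03 and 5.66 TPM, -0.40 ± 0.129).

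The widest range among strains was in the transferases. Gstm2 (chr3:107981702-107986436, - strand) was at 52.4, 48.6 and 50.9 TPM in C57 and 25.1, 23.2 and 25.7 in NOD, but at 0.509, 0.643 and 0.353 in BALB, 1.87 and 1.42 in PWK, and 0, 0.066 and 0.063 in SPRET. Gstp1 (chr19:4035411-4037912, - strand) went the other way, with 30.4, 23.1 and 29.7 TPM in C57, 115 and 121 in PWK and 675, 650 and 662 in SPRET, while NOD had 4.18, 5.4 and 5.76. These differences of 4.54 ± 0.136 in SPRET, 2.06 ± 0.152 in PWK and -2.23 ± 0.136 in NOD were all past 2-fold. Nqo1 was highest in C57, with 36.8, 31.1 and 35.2 TPM in BALB, 19.8, 19.5 and 19 in SPRET, 6.58, 6.56 and 6.28 in NOD, and 2.4 and 3.66 in PWK.

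PWK and SPRET shared low levels of several enzymes relative to C57. On the log2 scale Gclm was at -2.68 ± 0.081 in PWK and -3.00 ± 0.072 in SPRET, Srxn1 -2.40 and -1.64, Cat -2.67 and -1.82, and Prdx1 -1.78 and -3.33. In SPRET, Prdx1 was at 441, 419 and 467 TPM, and Ftl1 at 3420, 3310 and 3570 TPM against 23400, 21500 and 24200 in C57. Slc7a11 was lower in SPRET, at 5.36, 4.18 and 4.65 TPM against 14.3, 14.1 and 13.6 (-1.39 ± 0.111), and in PWK it was within its error of C57 (-0.04 ± 0.124). Gpx4 was the other gene called higher in SPRET (1.03 ± 0.06, a call lost under median-ratio and quantile scaling), at 206, 194 and 209 TPM against 104, 89 and 104.

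NADPH genes were low in NOD. Idh1 was at 7.66, 8.7 and 11 TPM there against 126, 121 and 133 in C57 (-3.67 ± 0.079, adjusted p = 2.2e-22), Pgd at 112, 119 and 117 against 559, 511 and 540 (-2.20 ± 0.04), and Tkt, transketolase, at -1.24 ± 0.041. Me1 was higher in NOD, at 8.2, 9.17 and 8.02 TPM (1.02 ± 0.106). Gsr (-1.37 ± 0.051) and Gpx1 (-1.37 ± 0.056) were also lower in NOD. The NOD calls for Srxn1, Cat, Gstm2, Abcc1 and Tkt were lost with median-ratio scaling, which gave -0.67, -0.69, -0.66, -0.74 and -0.88.

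The time course asked when the changes arose in C57 and whether SPRET followed. After 1 hour none of the 40 genes was past 2-fold in either strain, where 0.703% of all tested genes were called higher and 0.174% lower in C57, and 1.41% and 0.472% in SPRET. In C57 at 6 hours none was past 2-fold, against 1.56% higher and 0.571% lower, and 16 had passed lower and none higher, against 9.55% and 10.9%. At 24 hours 16 were past 2-fold lower and none higher, against 2.91% and 2.85% of all tested genes, and 30 passed lower and 4 higher, against 21.1% and 18.2%. The median over the 40 genes went from -0.01 at 1 hour to -0.19 at 6 hours and -0.71 at 24 hours. All 12 genes called in the C57 cells of the 5-strain experiment, which were separate libraries, were among these 16 (75.0% of them), and the added 4 were Srxn1, Sod1, Gstp1 and Idh1.

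Gclm held its level for 1 hour in C57, at 201 and 190 TPM at basal and 214 and 210 TPM, then reached 163 and 183 TPM at 6 hours and 72.2 and 70.3 TPM at 24 hours (-1.44 ± 0.07, adjusted p = 9.9e-09). Gsr had already passed at 6 hours, going from 104 and 106 TPM to 64.9 and 64.6 (-0.69 ± 0.064, adjusted p = 9.1e-06) and to 33.1 and 33.3 at 24 hours. Hmox1 went from 738 and 750 TPM through 683 and 654 and 530 and 498 to 224 and 225 TPM (-1.72 ± 0.05, adjusted p = 1.7e-10). Gsr and Hmox1 were thus each lower at 6 hours than at basal and lower still at 24 hours. Gclm lay only a little below basal at 6 hours, and most of its fall came later.

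At 1 hour, Bach1 and Nfe2l2 were the only genes of the 40 to pass in C57, 1 higher and 1 lower, where 2.73% and 1.22% of tested genes passed. In SPRET 6 passed lower and none higher, against 3.92% and 4.83%. Bach1 rose within 1 hour in C57, from 27.1 and 24 TPM to 44.4 and 40.7 (0.72 ± 0.077, adjusted p = 8.8e-05), and was back at 28.7 and 27.9 TPM by 6 hours. In SPRET it was at 39.8 and 43.8 TPM and then 42.8 and 47.5 (0.11 ± 0.077, adjusted p = 0.53), and the response at 1 hour differed between the strains by -0.61 ± 0.109 (adjusted p = 0.0096). Nfe2l2 in C57 went from 267 and 268 TPM to 200 and 208 at 1 hour (-0.39 ± 0.059, adjusted p = 0.0016), 184 and 208 at 6 hours and 154 and 169 at 24 hours (-0.72 ± 0.059, adjusted p = 1.1e-06). SPRET Nfe2l2 fell at 1 hour, from 471 and 496 to 343 and 342 TPM, and was at 446 and 451 TPM by 6 hours, a response 0.34 ± 0.084 above that of C57 (adjusted p = 0.02). Keap1 passed in C57 at 24 hours alone, with -0.43 ± 0.072, and at no time in SPRET.

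Sqstm1 in the C57 time course did not move the same way as in the other experiments. In the time course it fell from 805 and 820 TPM to 577 and 568 at 6 hours, then stood at 1050 and 1050 at 24 hours (0.37 ± 0.048, adjusted p = 6.0e-05), whereas the 24-hour difference was -0.65 in the C57 cells of the 5-strain experiment and -0.95 in Egr2WT. Nfe2l1 (0.62 ± 0.052), Maff (0.98 ± 0.196) and Mafk (0.50 ± 0.126) also rose at 24 hours in this C57 series and did not pass in C57 of the 5 strains. The difference between these experiments was not tested, since the tables were normalized separately.

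In SPRET, 24 of the 40 genes passed lower and 1 higher at 6 hours, against 13.7% and 16.9% of tested genes, and 21 and 3 at 24 hours, against 21.8% and 14.8%. The median over the 40 genes was -0.29 at 6 hours and -0.24 at 24 hours. In SPRET 1 gene, Sod2, was past 2-fold at 6 hours (-1.14 ± 0.079, where 1.75% of tested genes were called lower and 2.81% higher) and at 24 hours (-1.34 ± 0.079, 2.99% and 2.62%), falling from 145 and 165 TPM to 66.7 and 72.9 and then 57.2 and 63.3. In C57 the same gene was at -0.17 at 6 hours, and the 6-hour response differed by -0.97 ± 0.112 (adjusted p = 1.3e-04). Slc7a11 rose in SPRET, from 6.88 and 10 TPM to 13.5 and 15.7 at 6 hours and 16.7 and 15 at 24 hours (0.85 ± 0.135, adjusted p = 3.1e-04), and without SPRET basal replicate 2 it was past 2-fold. In the 5-strain SPRET libraries Slc7a11 did not pass higher at 24 hours, where the log2 ratio of its mean TPM was 0.19. Hmox1 fell little in the SPRET time course, from 230 and 236 TPM to 219 and 199 (-0.16 ± 0.05), unlike the -1.36 of the 5-strain SPRET libraries.

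The SPRET response minus the C57 response was past 2-fold for 1 gene at 6 hours, Slc7a11 (1.19 ± 0.191, with 1.36% of tested genes called higher), and at 24 hours for 8 genes higher and 1 lower, against 3.09% and 3.14%. Counting all that passed at 24 hours, 26 were higher and 5 lower, against 12.8% and 16.1%. The 8 were Hmox1 (1.57), Nqo1 (1.47), Srxn1 (1.4), Gsr (1.3), Gclm (1.23), Gss (1.14), Slc7a11 (1.06) and Me1 (1.01), and the lower gene was Sqstm1 (-1.08). Gss, Gsr, Gclm, Nqo1 and Me1 were called in the 5-strain comparison of SPRET with C57 as well, in separate libraries. There, Gss and Gclm were under 2-fold with median-ratio scaling. In the time course, Sqstm1 and Me1 were no longer past 2-fold with quantile scaling. At basal, 1 gene was called higher in SPRET (Gstp1, 3.71 ± 0.096) and 13 lower, against 9.92% and 8.88%, among them Prdx1 (-4.21), Gclm (-3.42), Slc7a11 (-2.58) and Hmox1 (-1.67). The neutrophil sum fell in C57 from 66.2 to 94.2 TPM to 6.48 to 7.97 at 24 hours and was 67.8 to 73.6 and then 71.8 to 91.7 TPM in SPRET, and mast cell and basophil markers were at 20.7 to 34.8 TPM in SPRET and at most 0.979 in C57. Macrophage markers went from 31800 to 32200 TPM at basal to 21500 to 22400 at 24 hours in C57 and from 51100 to 53700 to 40100 to 40500 in SPRET, where dendritic cell markers went from 2.72 to 3.57 TPM to 7.08 to 7.83, with Flt3 and Siglech at 0 at both times. The part of these markers in these differences was not tested.

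**Figure D3:**
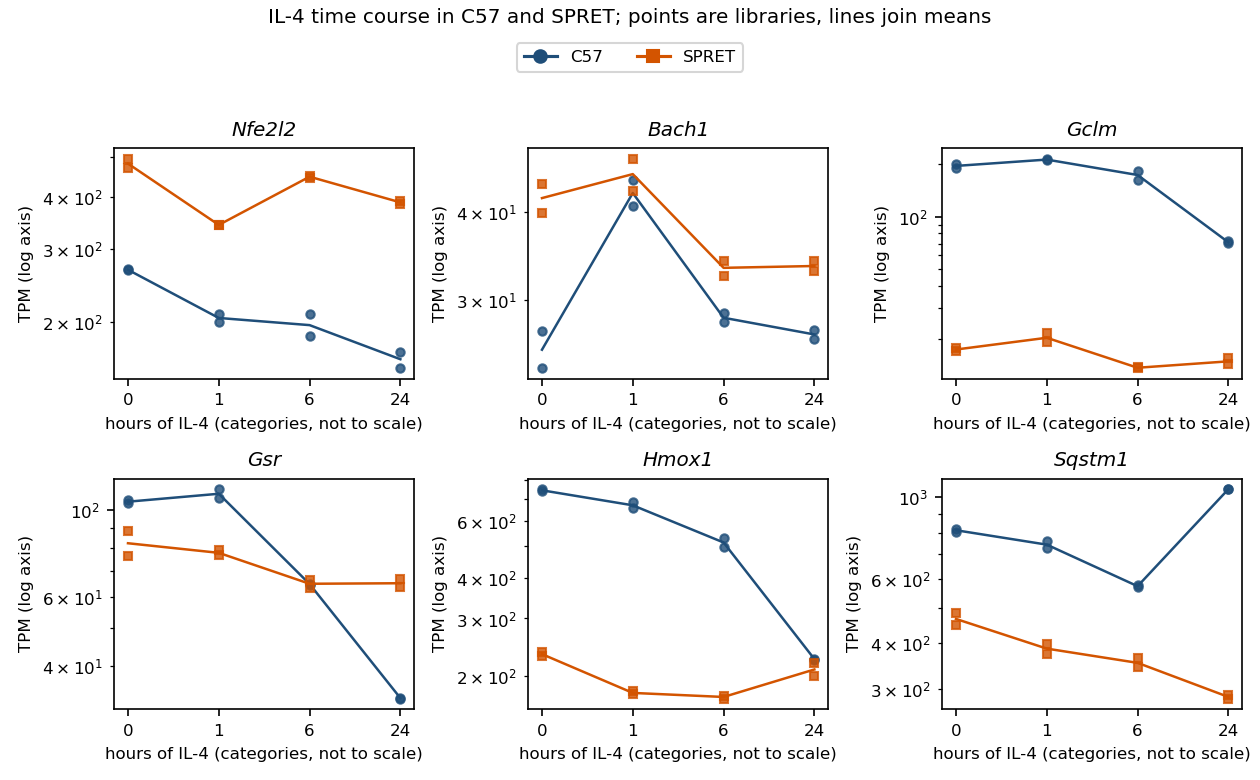
TPM (log axis) of Nfe2l2, Bach1, Gclm, Gsr, Hmox1 and Sqstm1 at 0, 1, 6 and 24 hours of IL-4 (evenly spaced categories) in C57 and SPRET, with a point per library and lines through the means. C57 Bach1 peaks at 1 hour (44.4 and 40.7 TPM), and C57 Gclm, Gsr and Hmox1 drop after 6 hours while the SPRET lines change less between 6 and 24 hours.

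The Egr2 experiment asked whether loss of EGR2 alters these genes. Only Egr2MKO carried Cre, so effects of Cre and of EGR2 loss cannot be told apart. In Egr2MKO 23 of the 40 genes passed lower and 2 higher already at basal, against 5.56% and 5.95% of all tested genes. More genes were past 2-fold lower at 24 hours of IL-4 than at basal, among them genes of cystine import and of the thioredoxin system. The number past 2-fold lower was 2 at basal, 1 at 1 hour, 3 at 6 hours and 6 at 24 hours, where 0.48%, 0.58%, 1.41% and 2.14% of all tested genes were called lower, and none of the 40 was called higher at these times, against 0.373%, 0.48%, 0.894% and 2.42%. Counting all that passed, 22 were lower and 1 higher at 1 hour (5.37% and 6.04% of tested genes), and 23 and 1 at 6 hours (9.12% and 11.5%). At 24 hours 26 genes passed lower and 4 higher, against 11.5% and 25.9% of all tested genes. Median-ratio scaling, which took the all-gene median from 0.12 to near 0, gave 9 past 2-fold lower and splits of 31 and 3.

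Slc7a11 (chr3:50364936-50443613, - strand), the cystine transporter subunit, had the largest log2 difference among the 40 genes at 6 and 24 hours. In Egr2WT it was at 57.9 and 63 TPM at basal, 65.4 and 64.1 at 1 hour, 45.2 and 42.2 at 6 hours and 47.6 and 46.4 at 24 hours. In Egr2MKO it was at 29.1 and 29 TPM, then 28.2 and 28.5, 8.24 and 6.54, and 7.1 and 7.3 TPM. The genotypes did not overlap at any time, and the log2 difference grew from -1.03 ± 0.083 at basal to -2.42 ± 0.083 at 6 hours and -2.55 ± 0.083 at 24 hours (adjusted p = 1.0e-09). The IL-4 response itself differed between genotypes by -1.39 ± 0.117 at 6 hours (adjusted p = 2.3e-04, 0.108% of tested genes called in this direction) and -1.52 ± 0.117 at 24 hours (adjusted p = 1.1e-05).

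For Prdx1 the genotypes were farthest apart at 24 hours. It was at 4190 and 4800 TPM in Egr2WT and 2970 and 2870 in Egr2MKO at basal, 3710 and 3490 against 2230 and 2120 at 6 hours, and 2600 and 2680 against 742 and 712 at 24 hours (-1.86 ± 0.058, adjusted p = 8.3e-10). The response at 24 hours differed by -1.24 ± 0.082 (adjusted p = 3.3e-06), and Slc7a11 and Prdx1 were the 2 genes of the 40 called for a response difference at that time, with 0.77% of all tested genes called in that direction. Txnrd1 went from 236 and 251 to 156 and 155 TPM in Egr2WT and from 149 and 150 to 63 and 63.8 in Egr2MKO (24-hour difference -1.28 ± 0.041). Srxn1 (-1.23 ± 0.031) and Nqo1 (-1.18 ± 0.048) were likewise past 2-fold lower at 24 hours. These genes were already lower at basal, by differences of -0.70 for Txnrd1, -0.79 for Srxn1 and -0.60 for Nqo1. Gsta4 was lower at basal (-1.31 ± 0.33), 6 hours and 24 hours (-1.69 ± 0.33), but at levels of 0.287 and 0.966 TPM in Egr2MKO against 4.71 and 3.62 in Egr2WT.

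Bach1 ran the other way. It was higher in Egr2MKO at each time, by 0.22 at basal, 0.37 at 1 hour, 0.40 at 6 hours and 0.77 ± 0.06 at 24 hours (adjusted p = 1.1e-06), when it was at 65.7 and 59.2 TPM against 36.1 and 36.2. Its rise at 1 hour was seen in both genotypes, 0.67 ± 0.06 in Egr2WT and 0.82 ± 0.06 in Egr2MKO, and the difference of 0.15 ± 0.085 did not pass (adjusted p = 1). Nfe2l2 fell at 1 hour in both, by 0.48 and 0.59 on the log2 scale, and was lower in Egr2MKO at 6 hours (-0.25 ± 0.052, adjusted p = 0.0051) and not at 24 hours (-0.04 ± 0.052, adjusted p = 0.62). Keap1 was higher in Egr2MKO at 24 hours (0.36 ± 0.06, adjusted p = 5.6e-04). Gpx1 rose with IL-4 in Egr2WT (0.41 ± 0.035) and fell in Egr2MKO (-0.21 ± 0.035), and the responses differed by -0.62 ± 0.049 (adjusted p = 1.2e-05).

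By 24 hours IL-4 had lowered most of these genes in both genotypes. In Egr2WT 12 genes were past 2-fold lower at 24 hours and in Egr2MKO 14, against 2.04% and 2.07% of all tested genes, and none was higher, against 2.31% and 2.76%. Median-ratio scaling left 9 past 2-fold lower in Egr2WT, without Gclc, Sod2 and Pgd, and gave 16 in Egr2MKO. Counting all that passed, 31 fell and 1 rose in Egr2WT (18.2% and 12% of tested genes), and 34 and 1 in Egr2MKO (11.8% and 16.2%). The response itself passed lower in Egr2MKO for 14 of the 40 genes and higher for 2, against 3.85% and 8.78% of tested genes, with a median of -0.14 over the 40 and 0.10 over all, and with median-ratio scaling for 21 and 1. Gsr was at -1.56 ± 0.056 in Egr2WT and -1.59 ± 0.056 in Egr2MKO, Gclm at -1.36 and -1.5, Prdx6 at -1.48 and -1.53, and Abcc1 at -1.41 and -1.34. Among the genes whose response difference did not pass, that of Gsr was -0.04 ± 0.079 (adjusted p = 0.82), and that of Gclm was -0.13 ± 0.079 (adjusted p = 0.33). At 6 hours Hmox1 was past 2-fold lower in Egr2WT (-1.04 ± 0.05, 0.869% of genes called lower), and its fall at 24 hours was smaller (-0.62 ± 0.05). In Egr2MKO 4 genes were past 2-fold lower at 6 hours, Slc7a11, Txnrd1, Srxn1 and Hmox1, against 1.33% of tested genes. None was higher, against 2.37%. Of the 12 Egr2WT genes, 10 were among the 12 called in C57 of the 5 strains, and the same 10 were called in the C57 time course, namely Abcc1, Cat, Gclm, Gsr, Gss, Me1, Nqo1, Pgd, Prdx6 and Sod2. The neutrophil sum at basal was 62.3 to 65.5 TPM in Egr2WT and 40.4 to 45.3 in Egr2MKO, at 24 hours it was 19.4 to 21.9 and 10.9 to 16.1, and macrophage markers at 24 hours summed to 15400 to 15600 and 12700 to 13300 TPM. At basal the macrophage sum was 24400 to 25900 TPM in Egr2WT and 20700 in Egr2MKO. The macrophage list includes Lyz2, the LyzM gene after which the Cre is named. The part of these markers in the result was not tested.

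**Figure D4:**
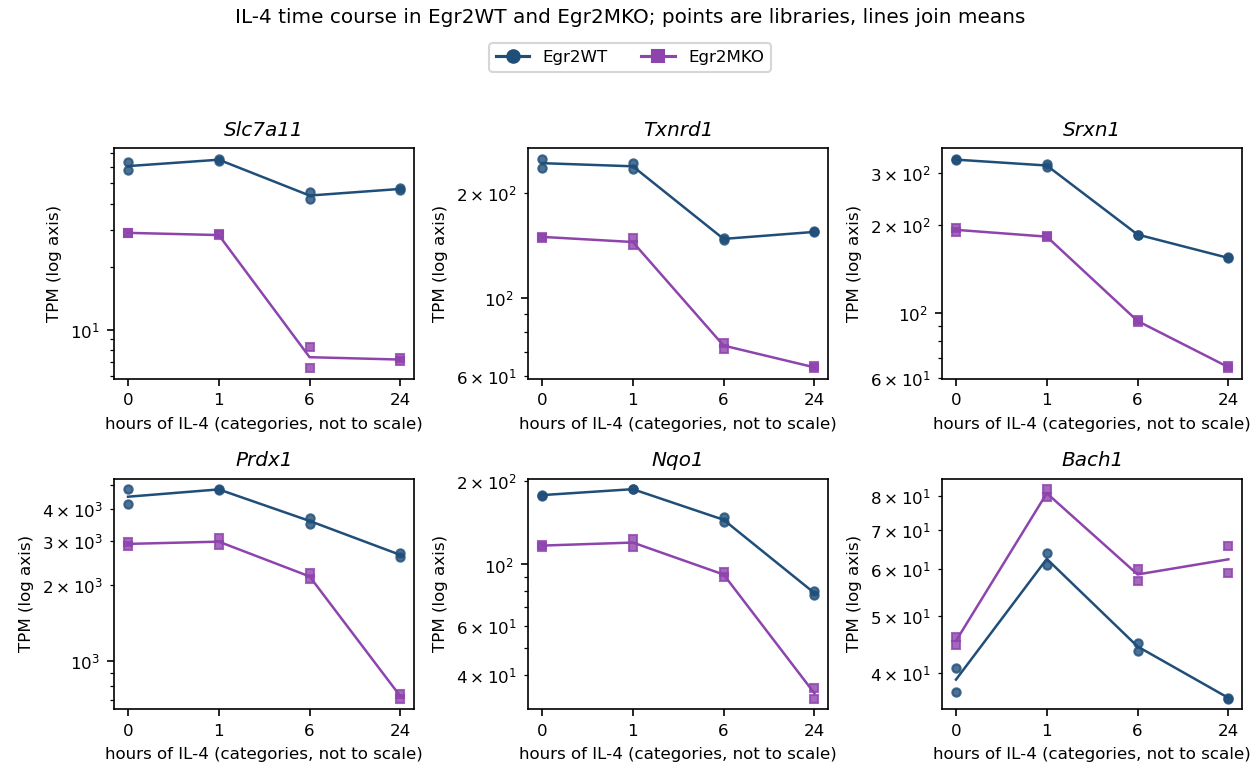
TPM (log axis) of Slc7a11, Txnrd1, Srxn1, Prdx1, Nqo1 and Bach1 at 0, 1, 6 and 24 hours of IL-4 (evenly spaced categories) in Egr2WT and Egr2MKO, with a point per library and lines through the means. The Egr2MKO line lies below that of Egr2WT for Slc7a11 (7.1 and 7.3 against 47.6 and 46.4 TPM at 24 hours), Txnrd1, Srxn1, Prdx1 and Nqo1, and above it for Bach1.

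In F1 cells both parental alleles sit in the same nucleus. Values per allele rest on reads that overlap a variant, their depth is unknown, and they are given as a description with no test. In C57xSPRET, 39 of the 40 genes were above 0 in every library. The median basal log2 ratio of the SPRET to the C57 allele was 0.08, where the parental strains had -0.43. The SPRET allele was lower in both basal libraries for 11 genes and higher in both for 19, and 4 genes were more than 2-fold apart. These values were computed for the 40 genes alone. With no share over all genes beside them, they do not set these genes apart from others.

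The largest allelic difference was at Gstp1, with C57 allele values of 9.09 and 8.02, SPRET allele values of 616 and 818, and a log2 ratio of 6.39 beside 4.57 between the parents. Its values are uncertain because close paralogs can share reads. Gclm had a smaller gap than the parents in the same direction, with 28 and 33.9 from the C57 allele and 12.5 and 16 from the SPRET allele, a ratio of -1.12 beside -3.08. The same was true of Prdx1 (-0.60 beside -3.34) and Ftl1 (-0.33 beside -2.75), whose SPRET alleles were lower in both basal libraries. For Cat (-0.08 beside -1.84), Slc7a11 (-0.05 beside -1.57) and Sqstm1 (0.01 beside -1.23) the allele ratio was near 0. Srxn1 and Nqo1 were higher from the SPRET allele (0.47 and 0.56) although lower in SPRET mice (-1.66 and -1.64). Gpx4 had 1.33 between alleles and 1.04 between parents.

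With IL-4 the median log2 change in C57xSPRET was -0.18 for C57 alleles and -0.33 for SPRET alleles, beside -0.71 and -0.16 in the parents, whose table was normalized separately. Nfe2l2 was lower after IL-4 from both alleles, with -1.07 and -1.12. In C57xNOD, where the parents differ at fewer sites, 18 genes were at 0 in every library and 16 above 0 in every one. Over these 16 genes the median log2 change with IL-4 was -0.3 for C57 alleles and -0.36 for NOD alleles, beside -0.95 and -0.22 in the parents. Gsr fell more than these medians from both alleles, with -1.18 for the C57 and -1.06 for the NOD allele. Its parental values were -1.69 and -0.21.

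**Figure D5:**
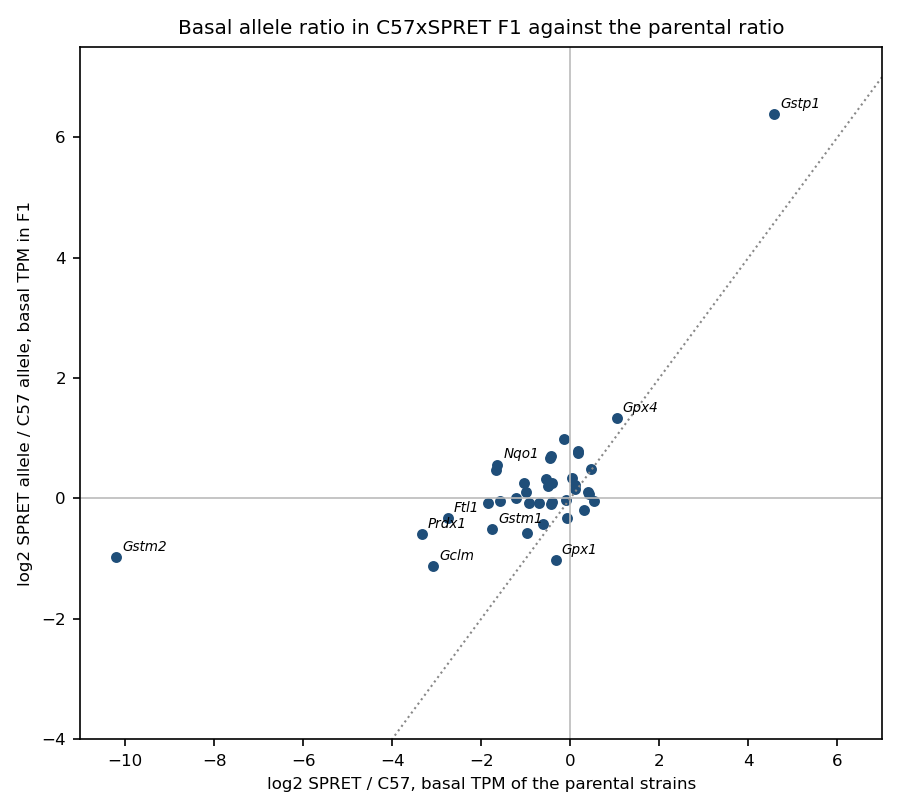
Basal log2 ratio of the SPRET to the C57 allele in C57xSPRET F1 cells (vertical axis) against the log2 ratio of basal TPM between the parental strains (horizontal axis) for 39 genes, each a point at the mean of 2 F1 libraries, with the dotted line at equality. Most points with a negative parental ratio lie near 0 on the vertical axis, Gstp1 is high on both, and the place of Gstm2 is uncertain because SPRET was at 0 to 0.066 TPM.

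Other genes of redox and iron metabolism, 72 in a wider list of which 71 were listed and 61 tested in the 5 strains, moved in both directions. In C57 after 24 hours of IL-4, 3 were past 2-fold higher and 4 lower, against 2.28% and 1.53% of all tested genes, and 10 and 15 of the 61 passed (15% and 20.5% of all tested genes), with a median of -0.07. The lower genes were the ferroportin gene Slc40a1 (-2.50), Gsta3 (-2.09), Mgst2 (-1.17) and Prdx5 (-1.05), and the higher ones were Gsta2 (3.61), Chac1, which degrades glutathione (1.90), and Gstt1 (1.22). Gsta2 went from 1.46, 1.58 and 1.64 TPM to 29.7, 28.5 and 32.6 in C57 and was called higher in BALB, NOD and PWK too. In the C57 time course at 24 hours 3 of 60 tested were higher and 9 lower, against 2.85% and 2.91% of all tested genes, and between Egr2MKO and Egr2WT at 24 hours 2 of 58 were higher and 4 lower, against 2.42% and 2.14%.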

How the data were processed

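RNA from BMDMs was poly(A)-selected and sequenced from strand-marked libraries. Per the study's methods, the authors aligned reads with STAR to genomes built for each strain with MMARGE, shifted positions to mm10, and counted exons with HOMER. The deposited tables hold TPM per gene and library, normalized per table by the authors, and the deposited F1 values are TPM of each allele scaled by the authors with the ratio of reads that overlap variants. For C57xSPRET these use genomic span as length, so they were compared within a gene, between alleles and conditions, and not between genes or as levels with other tables. Columns of the authors' own comparisons (fold changes and p-values) and the human table were not used.

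From the TPM, log2(TPM + 1) was fitted per table with limma 3.58.1 in R 4.3.3 (a mean per group, trend-based empirical Bayes) on genes with at least 1 TPM in 2 libraries, and p-values were adjusted over all of them. TPM were used as deposited, so the test is not a count model, and a fold on this scale understates the change of low genes. Response differences were contrasts in the same fit. The code was tested on simulated data.

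Depth, as tags per library in the table headers, was 7.02 M to 22.5 M in the 5 strains, 5.7 M to 24 M in the time course and 4.69 M to 32.9 M in the Egr2 experiment. The methods speak of biological replicates, but no source used here ties libraries to mice, so p-values measure the spread between libraries. The member genes and lists were chosen with earlier results of these data known. Genes given in every sample were the Nfe2l2, Nfe2l1, Keap1 and Bach1 regulators, up to 3 called genes per functional group and kind of comparison with the largest changes, and the gene of each group with the largest mean change over strains; Idh1, Gpx4, Tkt, Gsta2 and other genes named for a single value fill in the counts. Alternatives were another pseudocount (0.1 or 5), no filter, median-ratio or quantile scaling, fits on the compared groups alone, a replicate block and leaving out each replicate.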

Additional observations from a re-analysis of the deposited data

Results flagged for a closer look

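The IL-4 response of a gene differed between strains or genotypes, by the contrast of responses in the limma fit, in the following cases, given as log2 differences past 2-fold (adjusted p under 0.05). No group here holds 4 or more samples, so no search for outlying samples was made.

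Compared with C57 after 24 hours, BALB responses were higher for Gclm (1.23), Gsr (1.23), Prdx1 (1.07), Prdx6 (1.16), Nqo1 (1.05) and Hmox1 (1.22). NOD responses were higher for Gclm (1.02), Gsr (1.44), Cat (1.2), Gstp1 (1.00), Idh1 (1.34) and Hmox1 (1.16). PWK responses were higher for Gclm (1.25), Gsr (1.52), Srxn1 (1.36), Cat (1.09), Nqo1 (1.51), Abcc1 (1.1), Pgd (1.06) and Idh1 (1.22). SPRET responses were higher for Gclm (1.16), Gss (1.11), Gsr (1.21), Nqo1 (1.58) and Me1 (1.26). Several of these differences were under 2-fold with median-ratio or quantile scaling, as named in the results above.

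In the time course, the SPRET response exceeded that of C57 at 6 hours for Slc7a11 (1.19) and at 24 hours for Slc7a11 (1.06), Gclm (1.23), Gss (1.14), Gsr (1.3), Srxn1 (1.4), Nqo1 (1.47), Me1 (1.01) and Hmox1 (1.57), and was lower at 24 hours for Sqstm1 (-1.08). The Egr2MKO response was lower than that of Egr2WT for Slc7a11 at 6 hours (-1.39) and for Slc7a11 (-1.52) and Prdx1 (-1.24) at 24 hours.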

How the results depend on the processing

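Counts over the 40 genes were recomputed under each alternative. The count raised in at least 1 strain, 1 (Gsta4), went to 0 with a pseudocount of 5 and without replicate 3. The count past 2-fold in the SPRET time course, 1 (Sod2), was 2 with a pseudocount of 0.1 (Sod2 and Gsta4) and 3 without SPRET basal replicate 2 (Slc7a11, Sod1 and Sod2). Leaving out each replicate in turn gave 0 to 1 for the genes raised by IL-4 in a strain, 11 to 15 for those lowered, 25 to 27 for basal differences from C57, 13 to 15 for response differences, 14 to 17 in the C57 time course, 1 to 3 in the SPRET time course, 14 to 15 for its basal difference, 6 to 7 for Egr2MKO against Egr2WT and 12 to 14 for Egr2WT with IL-4. The other counts stayed within 1.5 times under the other alternatives.

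Of the values of single genes, 1 turned its direction, Nfe2l2 basal NOD minus C57, from -0.34 to 0.02 (adjusted p = 0.75) with median-ratio scaling. Calls were lost for 17 values under that scaling, 15 under quantile scaling, 30 with a pseudocount of 5, 2 with a pseudocount of 0.1, 1 without the filter, 21 in fits on the compared groups alone, and 111 of the fits without a replicate. Me1 in C57 with IL-4 went from -1.21 to -0.53 with a pseudocount of 5. The cause was not tested.

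Same-numbered libraries deviated together (r over 0.1) in 2 of 14 pairs in the 5 strains, 6 of 24 in the time course and 0 of 24 in the Egr2 experiment. The r values ran from -0.085 to 0.333, -0.143 to 0.266 and -0.139 to 0.038. With 2 libraries per group both numbers give the same r, so these counts cannot tell whether the numbers pair the libraries. The libraries were fitted as unpaired. With a replicate block the counts that could be fitted were 1, 12, 14, 16, 1 and 13, each as without it, and 2 of 140 single values were no longer past the threshold, Bach1 in Egr2WT at 6 hours (0.18, adjusted p = 0.064) and the Nfe2l2 response difference at 6 hours in Egr2MKO (-0.35, adjusted p = 0.088).

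Where leaving out a replicate left 1 library in a group, that library was assumed to vary like those of the other groups. The number of libraries, 2 or 3 per group, limits the precision, and TPM keep no read counts for a count model.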
